A study of Mus musculus with 48 samples.

Results

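Astrocytes take up the glutamate that neurons release, turn it into glutamine, buffer potassium and water at the endfeet around blood vessels, and share ions and metabolites through gap junctions. Much of this work rests on a small set of genes. Slc1a2 and Slc1a3 encode the glutamate transporters GLT-1 and GLAST, Glul encodes glutamine synthetase, Gja1 and Gjb6 encode the gap junction proteins connexin 43 and connexin 30, and Aqp4 encodes the water channel of the endfeet. Gfap encodes the intermediate filament of astrocytes, Aldh1l1 a folate enzyme, S100b a calcium-binding protein, and Sox9 a transcription factor that specifies glia during development and stays on in adult astrocytes.

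These 10 genes were followed among the 24421 genes of the count table, and each had a count in all 48 libraries. They were taken by symbol as astrocyte identity, connexin and glutamate uptake genes, and Sox9 was included because its level was lower after the open field. Every library is the hippocampal Cornu Ammonis (CA) tissue of 1 male mouse of 8–10 weeks. In the Glu-CB1 line, Cre under Nex regulatory elements removes a floxed cannabinoid receptor gene (CB1f/f) from glutamatergic neurons, and in the GABA-CB1 line Cre under Dlx5/6 elements removes it from GABAergic neurons. Neither deletion is thus directed at astrocytes. The CB1-WT mice are littermates from the same crosses. Mice were either kept in the home cage (basal) or explored an open field arena for 5 min, with tissue isolated an hour later. The basal groups hold 5 libraries of Glu-CB1-WT, 7 of Glu-CB1-KO, 6 of GABA-CB1-WT and 6 of GABA-CB1-KO mice, and the open field groups hold 5, 7, 7 and 5 in the same order. The labels and the study's text give the last pair of sizes in opposite order, and the labels were followed.

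The libraries held from 25892654 to 34091080 reads assigned to genes. Cnr1, the gene of the deleted receptor, lay between 311 and 412 CPM (counts scaled to library size) in CB1-WT libraries, between 204 and 249 CPM in Glu-CB1-KO libraries and between 100 and 158 CPM in GABA-CB1-KO libraries, so that KO and WT libraries did not overlap in either line. The 12 markers of CA pyramidal cells summed to between 7436 and 9117 CPM, and the 8 markers of dentate granule cells to between 229 and 542 CPM. In 4 libraries the 9 markers of choroid plexus and ependyma summed to over 200 CPM, up to 4066 CPM in 1 GABA-CB1-KO open field library. The first principal component of the 500 most variable genes held 17.5% of the variance and followed Xkr4, which ran from 3.22 to 39.3 CPM, with low and high libraries in all 8 groups. In the Glu-CB1 line Xkr4 split the libraries by the number that ends their label. It had 3.95 to 11.6 CPM in the lower-numbered and 13.6 to 39.3 CPM in the higher-numbered libraries. No such split was seen in the GABA-CB1 line, and the labels do not say what the number stands for. The component was weakly related to Sox9 (r = -0.04), and among the other 9 genes its r ran from -0.47 for Aldh1l1 to 0.38 for Aqp4.

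The promoters of 3 of these genes are shown because Gjb6 and Glul varied together from mouse to mouse while Gja1 varied with other genes, as described further on. Each line gives the 250 bases before the RefSeq start of transcription, 5′ to 3′ on the gene's own strand, in build GRCm38.p6, and each start coincides with the first base of the gene in the count table. In chromosome terms they are chr14:57133612-57133861 on the minus strand for Gjb6, chr1:153899679-153899928 on the plus strand for Glul and chr10:56377050-56377299 on the plus strand for Gja1. Capitals mark matches to any of the motifs searched.
Gjb6: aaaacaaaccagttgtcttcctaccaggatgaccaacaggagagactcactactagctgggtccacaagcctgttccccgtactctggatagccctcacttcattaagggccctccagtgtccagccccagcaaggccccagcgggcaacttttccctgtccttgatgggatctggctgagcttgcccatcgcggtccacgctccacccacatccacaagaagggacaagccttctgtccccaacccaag
Glul: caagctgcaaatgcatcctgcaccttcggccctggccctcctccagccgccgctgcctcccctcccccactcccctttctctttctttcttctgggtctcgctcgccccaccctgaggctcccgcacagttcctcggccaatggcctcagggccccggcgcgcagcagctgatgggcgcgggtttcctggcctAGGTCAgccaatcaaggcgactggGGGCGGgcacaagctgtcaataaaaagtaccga
Gja1: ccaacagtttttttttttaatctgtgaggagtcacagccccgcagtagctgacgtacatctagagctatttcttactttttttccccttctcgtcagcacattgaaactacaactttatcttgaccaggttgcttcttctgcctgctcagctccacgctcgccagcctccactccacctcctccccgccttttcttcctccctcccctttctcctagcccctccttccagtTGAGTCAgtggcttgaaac
The letters searched, on both strands, were ACAAAG and AACAAT (SOX factors), GAACA and TGTTC with 3 bases between them (glucocorticoid receptor), CACGTG (E-box), AGGTCA (nuclear receptors), TGACTCA (AP-1), TGACGTCA (cAMP response element) and GGGCGG (GC box). No motif overlapped another in these windows. The Glul window holds AGGTCA between 57 and 52 bases before the start and GGGCGG between 33 and 28 bases before it. AGGTCA occurs in 14% and GGGCGG in 32.7% of the 32851 promoters of the table. The Gja1 window holds the AP-1 letters between 19 and 13 bases before its start, read there on the reverse strand, as 4.46% of promoters do. The Gjb6 window holds none of the letters. It has 56.8% G and C, against 64.8% in Glul and a median of 52.4% over all promoters, and it has 5 CpG sites where Glul has 15 and Gja1 has 6. Promoters were at hand for 8 of the 10 genes, all but Sox9 and Aqp4. AACAAT, which occurs in 9.42% of promoters, and ACAAAG, in 16.5%, were in none of the 8 windows.

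The genes covered a wide range of levels. Per length of the gene, in RPKM (CPM per kilobase of exon), Glul was the most abundant at 441 ± 31.7 (SD, n = 48), followed by Slc1a2 at 303 ± 19.5 and Slc1a3 at 173 ± 7.80. The filament, connexin 43 and S100b came next. Gja1 had 81.6 ± 5.85 RPKM, Gfap had 72.4 ± 14.8 RPKM and S100b had 61.5 ± 3.61 RPKM. Over all libraries the Gfap mean was within 1 SD of both neighbours, but 1 library carried much of that SD, and without it Gfap had 70.6 ± 8.16 RPKM (n = 47), which left Gja1 and S100b more than 1 SD away. Aqp4 (28.3 ± 4.18 RPKM) and Gjb6 (22.9 ± 3.47 RPKM) overlapped as well. Aldh1l1 had 15.5 ± 1.04 RPKM, and Sox9 was the lowest of the set at 5.47 ± 0.619 RPKM, near the middle of all genes tested (percentile 43.7). The glutamate genes were thus among the most abundant transcripts of the tissue, with Glul at percentile 99.7 and Slc1a2 at percentile 99.5. Since the tissue was sequenced in bulk, fewer astrocytes and less RNA per astrocyte cannot be told apart in any of these values.

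**Figure D1:**
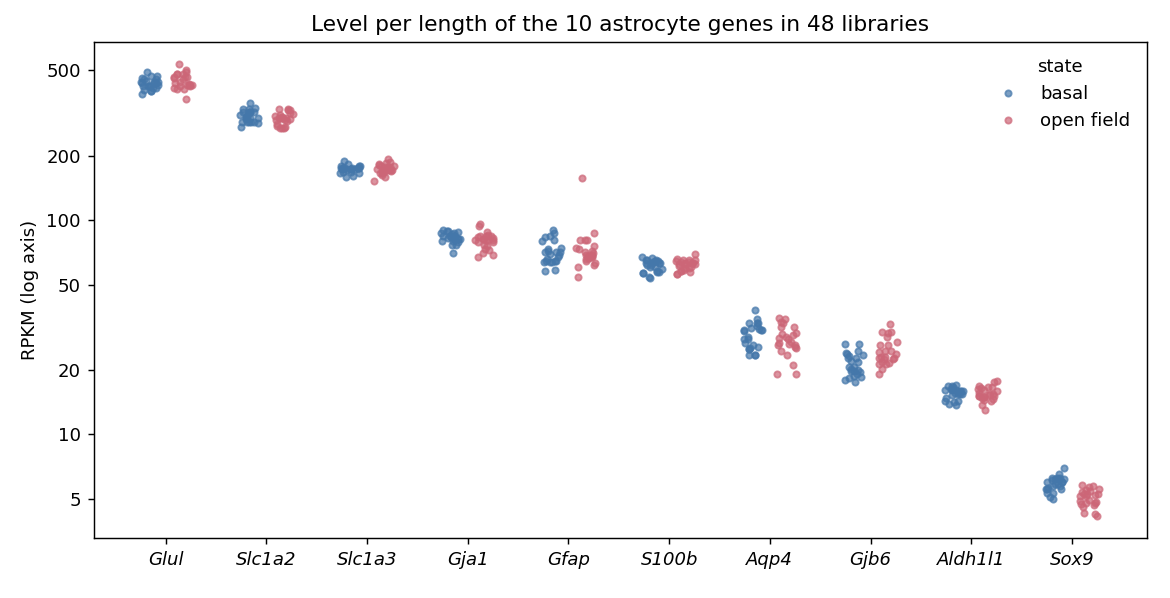
Level per length (RPKM, log axis) of the 10 astrocyte genes, 1 point per library, basal in blue and open field in red, with genes ordered by their mean over 48 libraries. The levels fall from 441 RPKM for Glul to 5.47 RPKM for Sox9, the basal and open field libraries overlap for every gene, and 1 open field library stands far above the others for Gfap.

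The genes also differed in how steady they were. The SD of log2 CPM within groups was 0.07 for both Slc1a2 and Slc1a3, which placed them at percentiles 13.9 and 16.6 of all 15570 genes tested over the 48 libraries. S100b (0.08), Aldh1l1 (0.10), Gja1 (0.10) and Glul (0.11) were in between, and Sox9 had 0.13. The most variable were Gjb6 (0.19), Aqp4 (0.22) and Gfap (0.25), at percentiles 71.3, 75.3 and 78.9. The Gfap value rests on 1 GABA-CB1-KO open field library, without which it was 0.16 (percentile 63.9), below Gjb6 (0.19) and Aqp4 (0.20). With or without that library, the glutamate transporters varied least from mouse to mouse and connexin 30 and the water channel more than the other genes apart from Gfap.

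Sox9 was lower after the open field in all 4 pairs of groups. In basal Glu-CB1-WT mice the 5 libraries had 21.2, 22.9, 24.8, 25 and 25.7 CPM (normalized by TMM), and after the open field the 5 libraries had 19.7, 21.3, 21.4, 21.6 and 21.9 CPM. All 5 open field libraries lay below the basal median, and 1 of them lay below the lowest basal library. In Glu-CB1-KO mice, Sox9 ran from 23 to 26 CPM with a median of 25.6 in the 7 basal libraries, and from 17.3 to 23.9 CPM with a median of 21.7 in the 7 open field libraries. Here 5 of the 7 open field libraries were below every basal library. In GABA-CB1-WT mice, it ran from 22.1 to 27 CPM with a median of 24 in 6 basal libraries, and from 17.8 to 23.5 CPM with a median of 20.0 in 7 open field libraries, and 5 of these were below every basal library. In GABA-CB1-KO mice, the 6 basal libraries ran from 20.7 to 28.8 CPM with a median of 23.8, and the open field libraries had 17.6, 18.9, 22.5, 22.8 and 24 CPM. This was the pair with the widest overlap, since 4 of 5 open field libraries were below the basal median and 2 were below the lowest basal library.

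**Figure D2:**
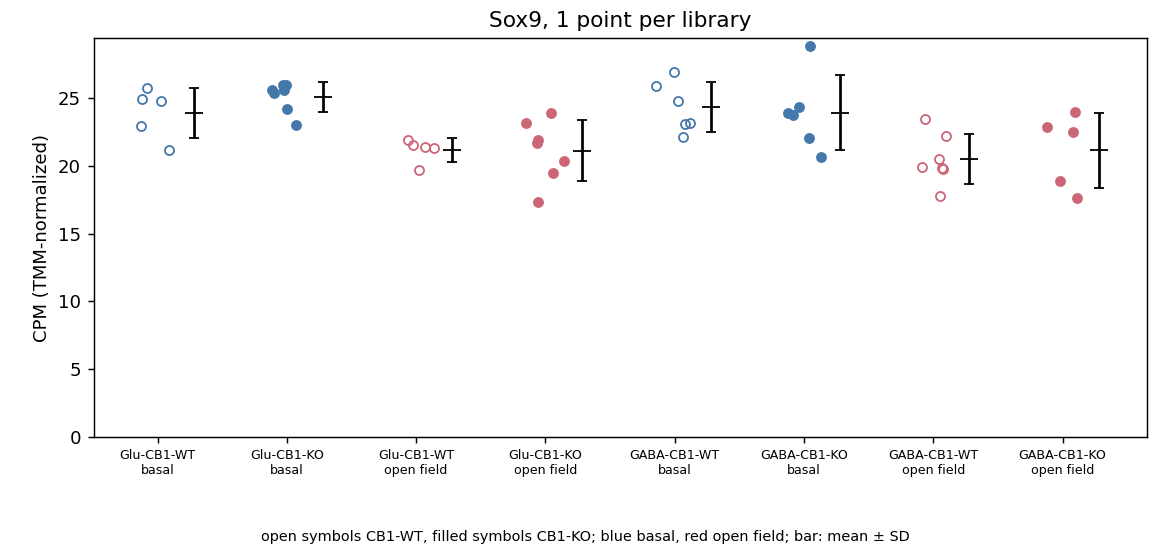
Sox9 in TMM-normalized CPM in the 8 groups, 1 point per library, with CB1-WT as open and CB1-KO as filled symbols, basal in blue and open field in red, and mean ± SD as a bar beside each group. Basal group means span 23.9 to 25.1 CPM and open field group means 20.5 to 21.2 CPM, and the basal and open field libraries overlap in every pair.

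Adjusted for genotype, the log2 difference of Sox9 between open field and basal was -0.22 (SE 0.043, 24 libraries) in the Glu-CB1 line, against -0.21 (SE 0.056, 24 libraries) in the GABA-CB1 line. The group means changed by -11.5% in Glu-CB1-WT, -15.9% in Glu-CB1-KO, -15.8% in GABA-CB1-WT and -11.6% in GABA-CB1-KO mice. These values chose the gene and are given as a description. Without the 4 libraries rich in choroid plexus markers, the log2 difference was -0.23 in the Glu-CB1 and -0.17 in the GABA-CB1 line. Of the 10 genes, 1 (Sox9) was past an adjusted p of 0.05 in edgeR's quasi-likelihood test in the Glu-CB1 line, where 1.83% of 15178 genes were, and 0 were in the GABA-CB1 line, where 0.966% of 15216 genes were. Groups did not overlap for 0 of the 10 genes in any of the 4 open field pairs, beside 0.276% to 1.23% of all genes. No dependence of the Sox9 difference on line or genotype was detected. Its difference between the lines was -0.00 (95% interval -0.15 to 0.14, adjusted p = 1.00, edgeR's quasi-likelihood test). The genotype by state interaction of Sox9 was -0.07 (95% interval -0.25 to 0.10, adjusted p = 1.00) in the Glu-CB1 line, against 0.07 (95% interval -0.15 to 0.30, adjusted p = 0.790) in the GABA-CB1 line, in the same test.

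Some of the 9 lists of markers of other cell types or regions had differences in the same direction as Sox9, not all of them in both lines. Of all genes, 54.2% were below 0 in the Glu-CB1 and 50.4% in the GABA-CB1 line. All 12 vascular markers were lower after the open field in both lines, with medians of -0.10 and -0.07 on the log2 scale, and 0 of 12 passed the test in either. Their summed level ran from 313 to 447 CPM in basal and from 279 to 432 CPM in open field libraries, and none of them was at 0. Of the 8 markers of dentate granule cells, 6 were below 0 in the Glu-CB1 line (median -0.08) and 7 in the GABA-CB1 line (median -0.18). Of the 6 markers of oligodendrocyte precursors, 5 were below 0 in the Glu-CB1 line (median -0.10) and 4 in the GABA-CB1 line (median -0.02). Of the 8 markers of thalamus, 3 were below 0 in the Glu-CB1 line (median 0.02) and 7 in the GABA-CB1 line (median -0.15). Of the 10 markers of oligodendrocytes, 7 were below 0 in the Glu-CB1 and 4 in the GABA-CB1 line. These counts were 4 and 9 of 10 for microglia, and 7 and 2 of 9 for choroid plexus and ependyma. They were 6 and 6 of 12 for CA pyramidal cells, and 7 and 4 of 11 for interneurons. None of the markers of the 9 cell types or regions passed edgeR's test in either line. The part of these cells in the Sox9 difference was not tested. The 10 astrocyte genes themselves summed to between 6141 and 7170 CPM in basal and between 6057 and 7102 CPM in open field libraries. Most of this sum came from Slc1a2, Glul and Slc1a3, with means of 3651, 1238 and 729 CPM, where Sox9 had 22.7 CPM. The sum thus says little about the other genes.

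Gjb6 was the one other gene of the set whose difference exceeded 0.1 in both lines, in the opposite direction. In Glu-CB1-WT mice connexin 30 had 40.8, 41.3, 42.1, 52.1 and 57.9 CPM in the basal and 44.1, 49.2, 50.6, 52.1 and 59.2 CPM in the open field libraries. In Glu-CB1-KO mice it ran from 38.6 to 58.1 CPM (median 44.4) before and from 46.6 to 71.8 CPM (median 54.0) after. The groups overlapped, but 0 of these open field libraries lay below the basal median of its genotype. In GABA-CB1-WT mice, Gjb6 ran from 40.4 to 53.6 CPM (median 46.6) in the basal and from 42.2 to 62.9 CPM (median 49.9) in the open field state. Gjb6 was below the basal median in 1 of these 7 open field libraries. In GABA-CB1-KO mice it ran from 43.1 to 52.6 CPM (median 49.1) in the basal state, and the open field libraries had 49.4, 50.3, 53.4, 57.1 and 66.2 CPM. The log2 difference was 0.24 (SE 0.083) in the Glu-CB1 and 0.17 (SE 0.061) in the GABA-CB1 line (0.22 and 0.14 without the 4 libraries rich in choroid plexus markers), and the group means were 25% higher in Glu-CB1-KO but 9.01% higher in Glu-CB1-WT mice. That gap between the genotypes was not separable from the spread, with an interaction of 0.20 (95% interval -0.13 to 0.53, adjusted p = 1.00, edgeR's quasi-likelihood test). In the same test the open field difference of Gjb6 did not pass in the Glu-CB1 line (adjusted p = 0.150) or the GABA-CB1 line (adjusted p = 0.211).

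For the remaining 8 genes the log2 differences between open field and basal lay within 0.09 of 0 in both lines. Those of the transporter Slc1a2 were -0.05 (SE 0.030) and -0.04 (SE 0.027), and those of Aqp4 were -0.08 (SE 0.076) and -0.09 (SE 0.086), in the Glu-CB1 and the GABA-CB1 line. Over the 10 genes, the median was 0.01 in the Glu-CB1 and -0.02 in the GABA-CB1 line, beside -0.01 and -0.00 over all genes tested. The enzyme Glul had 0.08 (SE 0.041) and 0.01 (SE 0.041). Gfap had 0.00 (SE 0.059) in the Glu-CB1 line, against 0.09 (SE 0.124) in the GABA-CB1 line, where the sign rested on 1 library described below.

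**Figure D3:**
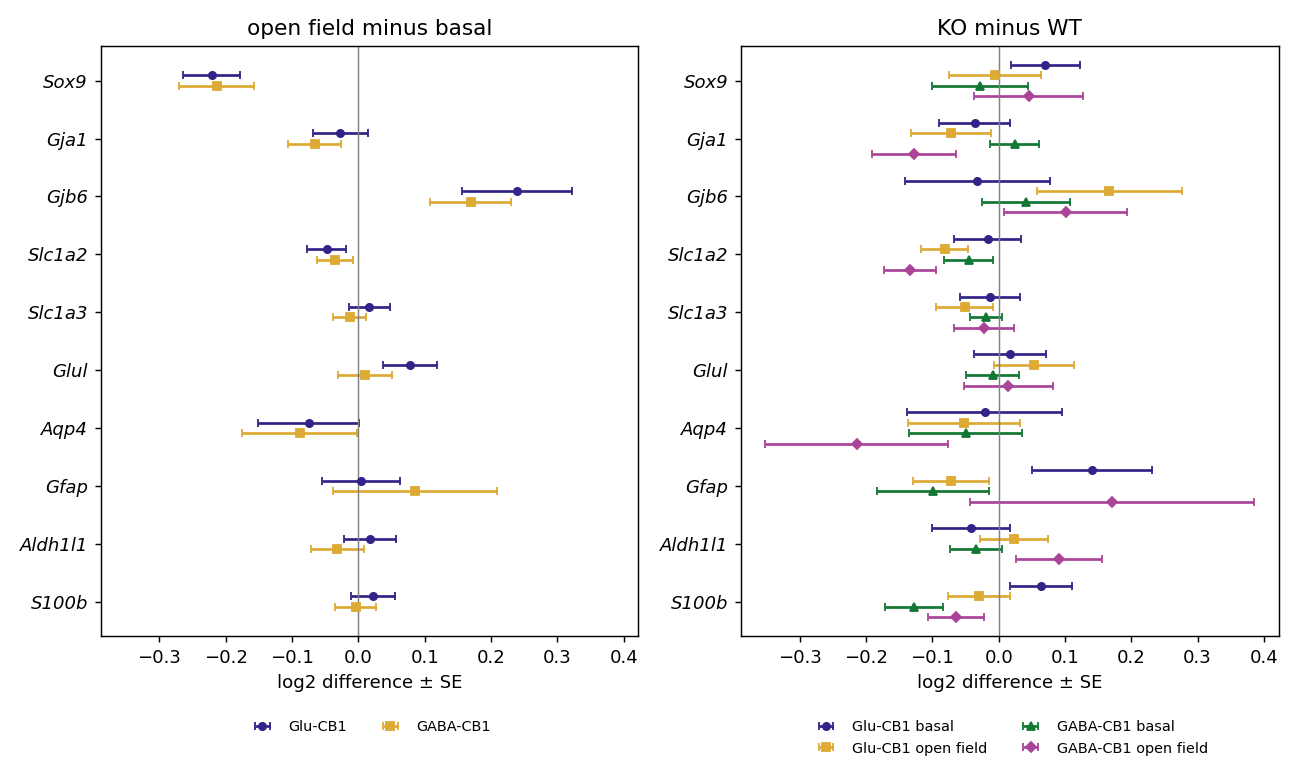
Log2 difference ± SE from edgeR for the 10 astrocyte genes, open field minus basal with genotype in the model on the left (24 libraries per line) and KO minus WT in 4 comparisons on the right (12 libraries each). Sox9 lies at -0.22 and -0.21 and Gjb6 at 0.24 and 0.17 on the left, and no gene on the right passed an adjusted p of 0.05.

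Loss of CB1 from neurons was compared in each line and state. Of the 10 genes, 0 were called in the basal Glu-CB1 line (background 0.0198% of 15138 genes, edgeR's quasi-likelihood test), 0 in the open field Glu-CB1 line (0.272%), 0 in the basal GABA-CB1 line (0.245%) and 0 in the open field GABA-CB1 line (0.0199%). At an unadjusted p under 0.05 there were 0, 1, 1 and 1 of the 10 genes, in the same order, beside 3.57%, 6.97%, 8.16% and 13.2% of all genes. DESeq2 called 0 of them too in each of these comparisons. KO and WT libraries overlapped for all 10 genes in each comparison, where between 0.193% and 0.97% of all genes did not overlap.

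The glutamate transporter Slc1a2 (chr2:102658683-102790784, plus strand, mm10) had the lowest unadjusted p of the set. In open field GABA-CB1-KO mice its libraries had 3230, 3238, 3259, 3334 and 3404 CPM, and in open field GABA-CB1-WT mice it ran from 3281 to 3972 CPM with a median of 3629. Of the KO libraries, 3 were thus below every WT library. The log2 difference was -0.13 (SE 0.039, 95% interval -0.21 to -0.06, adjusted p = 0.245, edgeR's quasi-likelihood test). The difference was also below 0 in the open field Glu-CB1 line (-0.08, SE 0.035, adjusted p = 0.650), in the basal GABA-CB1 line (-0.04, SE 0.037, adjusted p = 0.761) and in the basal Glu-CB1 line (-0.02, SE 0.051, adjusted p = 0.999). None of the 4 passed the test. Among WT mice, Slc1a2 was 0.10 (SE 0.028) higher in the Glu-CB1 than in the GABA-CB1 line, with an unadjusted p of 0.000986 and an adjusted p of 1.00 in edgeR's test, and the line cannot be told apart from its breeding colony. By group mean, the transporter ran from 3293 ± 74.2 CPM (SD, n = 5) in GABA-CB1-KO open field to 3873 ± 291 CPM (n = 5) in Glu-CB1-WT basal libraries.

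For the other genes the differences between KO and WT were as small or less certain. S100b had -0.13 (SE 0.044, adjusted p = 0.463, edgeR's test) in the basal GABA-CB1 line, with group means of 97.1 ± 6.83 CPM in KO and 106 ± 4.29 CPM in WT mice (SD, n = 6 each). Its KO minus WT difference was 0.11 (SE 0.047) higher in the Glu-CB1 than in the GABA-CB1 line, with an adjusted p of 0.401 in the fit of all libraries. Gja1 had -0.13 (SE 0.063, adjusted p = 0.404) and Aqp4 had -0.21 (SE 0.138, adjusted p = 0.505) in the open field GABA-CB1 line in edgeR's test. The 95% intervals of Sox9 over the 4 comparisons lay between -0.17 and 0.21. Across lines and in the interactions, 0 of the 10 genes passed the test. The background was 0.732% for the difference between lines of KO minus WT and 0% for both interactions, for the line difference of the open field response and for the WT mice of both lines. At an unadjusted p under 0.05, between 327 and 2237 of all genes were counted in these 5 comparisons, and of the 10 genes 1 was counted in the former and 1 (Slc1a2) among WT mice. DESeq2 called 0 of the 10 in each of them.

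Gfap (chr11:102887336-102897200, minus strand, mm10) stood apart in 1 mouse. The GABA-CB1-KO open field libraries had 222, 246, 255, 269 and 639 CPM, and no other library of the series exceeded 365 CPM. KO minus WT was 0.17 (SE 0.214, adjusted p = 0.745, edgeR's test) with this library and -0.22 (SE 0.079, adjusted p = 0.314) without it. The same library had the lowest Glul (1031 CPM) and the lowest Slc1a3 (639 CPM) of all 48 libraries, and the highest Aldh1l1 (54.9 CPM).

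Genes of the same pathways, taken as whole lists, gave few calls. Of 68 other astrocyte genes tested, 2 were called after the open field in the Glu-CB1 line (background 1.83%), against 0 in the GABA-CB1 line. At an unadjusted p under 0.05 there were 8 and 7 of them, beside 14% and 12.1% of all genes. Sox2, a SOX transcription factor of neural stem cells that astrocytes also express, fell by 0.30 on the log2 scale (SE 0.053, adjusted p = 0.00401, edgeR's quasi-likelihood test) in the Glu-CB1 line, against -0.19 (SE 0.053, adjusted p = 0.0883) in the GABA-CB1 line. Dio2, the deiodinase that activates thyroid hormone, rose by 0.28 (SE 0.054, adjusted p = 0.00826) in the Glu-CB1 line, against 0.27 (SE 0.068, adjusted p = 0.0551) in the GABA-CB1 line. The lines did not differ by test for either gene, with an adjusted p of 1.00 for Sox2 and for Dio2. Leaving out Sox9, which was chosen for its difference, 13 of the 15 SOX genes tested had a difference below 0 in the Glu-CB1 line (median -0.07, beside 54.2% of all genes below 0) and 11 in the GABA-CB1 line (median -0.06, beside 50.4%). Of these 15, 1 (Sox2, also in the astrocyte list) was called in the Glu-CB1 line, against 0 in the GABA-CB1 line. With Sox9 counted, 5 and 2 of 16 SOX genes had an unadjusted p under 0.05 in edgeR's test, Sox9 among them in each line.

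In the list of Notch, BMP and FGF genes, which hold signals that shape astrocytes, 3 of 35 were called in the Glu-CB1 line, against 1 in the GABA-CB1 line (background 0.966%). Heyl, a target of Notch that is also found in vascular mural cells, fell by 0.40 (SE 0.073, adjusted p = 0.00415, edgeR's test) in the Glu-CB1 line, against -0.12 (SE 0.080, adjusted p = 0.622) in the GABA-CB1 line. Smad1, which carries BMP signals, rose by 0.15 (SE 0.030, adjusted p = 0.00868) in the Glu-CB1 line, against 0.08 (SE 0.032, adjusted p = 0.308) in the GABA-CB1 line. Spry4, an inhibitor of FGF receptor signalling, rose in both lines, by 0.25 (SE 0.061, adjusted p = 0.0303) and 0.36 (SE 0.071, adjusted p = 0.0139). At an unadjusted p under 0.05 there were 13 and 6 of the 35, beside 14% and 12.1% of all genes. The open field response differed between the lines for 0 of 15570 genes in edgeR's test, Heyl included. Among 11 connexins, 22 genes of glutamate and glutamine handling, 18 endfoot and water genes and 34 genes of filaments and reactive astrocytes tested, 0 were called in either line by edgeR, and at an unadjusted p under 0.05 there were 3, 0, 3 and 2 of them in the Glu-CB1 line (beside 14% of all genes) and 1 of each list in the GABA-CB1 line (beside 12.1%). In the KO comparisons within a line, the only call in any of the 7 lists was Ptgs2, the inducible cyclooxygenase, which was also listed with reactive astrocytes and fell by 0.67 (SE 0.070, adjusted p = 0.000668, edgeR's test, background 0.245%) in basal GABA-CB1-KO mice. The difference between lines of KO minus WT (Glu-CB1 minus GABA-CB1, background 0.732%) was called in the list of filaments and reactive astrocytes for Ptgs2 (0.56, SE 0.142, adjusted p = 0.0449) and for Synm, the filament protein synemin (-0.21, SE 0.045, adjusted p = 0.0114, edgeR's test).

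The genes next to Sox9 on chromosome 11 were read for comparison. Sox9 spans chr11:112782210-112787757 on the plus strand (mm10, as in the count table). The nearest tested genes before it were BC006965, Kcnj2 and Kcnj16, at 70854, 1705385 and 1754243 bases, and those after it were Gm11681, 2610035D17Rik and Slc39a11, at 4974, 256149 and 457098 bases. None of the 6 passed edgeR's test after the open field. Kcnj2, an inward rectifier potassium channel gene, had -0.34 (SE 0.111, adjusted p = 0.116) in the Glu-CB1 and -0.47 (SE 0.120, adjusted p = 0.0552) in the GABA-CB1 line, and the other 5 lay between -0.13 and 0.11.

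Beyond the group means, some of the 10 genes varied together from mouse to mouse. Deviations of log2 CPM from the group means were correlated over the 48 libraries for all 45 pairs, with permutation within groups (100000 draws, two-sided) and Benjamini-Hochberg adjustment over the 45 pairs. The median r was 0.07, and 25 pairs were above 0. By both Pearson's r and Spearman's rho, 9 pairs passed an adjusted p of 0.05, 7 of them above and 2 below 0. In the permutation test the smallest p that could be obtained was 1e-05 before adjustment. Libraries were exchanged within groups regardless of the number that ends their label.

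Connexin 30 varied with glutamine synthetase. Gjb6 and Glul had r = 0.77 and rho = 0.77 (permutation test, adjusted p = 0.00015 for both), and r = 0.72 without the 2 libraries farthest from the Gjb6 median. Slc1a3 and Glul had r = 0.55 and rho = 0.55 (permutation test, adjusted p = 0.0045 and 0.00216), and r = 0.53 without the 2 farthest. Their r was 0.27 in basal and 0.69 in open field libraries, and 0.46 without the library with high Gfap. Slc1a3 was not tied to Gjb6 by the test (r = 0.29, permutation test, adjusted p = 0.174). A second set of genes that varied together held the water channel, connexin 43 and GLT-1. Gja1 and Aqp4 had r = 0.73 and rho = 0.79 (permutation test, adjusted p = 0.00015 for both), and r = 0.78 without the 2 farthest libraries. Slc1a2 and Aqp4 had r = 0.61 and rho = 0.70 (adjusted p = 0.00015 for both in the permutation test, r = 0.58 without the 2 farthest). Gja1 and Slc1a2 had r = 0.51 and rho = 0.56 (adjusted p = 0.0027 and 0.00191 in the permutation test, r = 0.57 without the 2 farthest). Between both connexins of astrocytes r was -0.26, which did not pass (permutation test, adjusted p = 0.188).

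Inverse relations that passed by both measures were found with Aqp4 alone. Glul and Aqp4 had r = -0.52 and rho = -0.45 (permutation test, adjusted p = 0.00799 and 0.0182), and r = -0.39 without the 2 farthest libraries. Gjb6 and Aqp4 had r = -0.51 and rho = -0.50 (permutation test, adjusted p = 0.0045 and 0.00562), and r = -0.50 without the 2 farthest. Of the 6 pairs of Gjb6 or Glul with Aqp4, Gja1 or Slc1a2, all had r below 0, and the 4 without Aqp4 ran from -0.36 to -0.11 and did not pass by both measures. Slc1a3 and Slc1a2 had r = 0.40 and rho = 0.17 (permutation test, adjusted p = 0.0612 and 0.387). Each of the 7 relations described so far that passed kept its sign within either line, within either state and after the first principal component was regressed out, and the r of Gjb6 and Aqp4, for example, was -0.49 in the Glu-CB1 line, -0.55 in the GABA-CB1 line, -0.68 in basal libraries and -0.36 in open field libraries. The other 2 pairs were Aqp4 with Gfap (r = 0.57, rho = 0.41, permutation test, adjusted p = 0.00799 and 0.0319) and Aldh1l1 with S100b (r = 0.40, rho = 0.39, permutation test, adjusted p = 0.0323 and 0.0319). The former was r = 0.44 without the library with high Gfap and r = 0.39 without the 2 libraries farthest from the Aqp4 median, and the latter was r = 0.34 without the 2 farthest and ran from 0.18 in basal to 0.60 in open field libraries. With the first principal component regressed out, the former was r = 0.66 and the latter r = 0.29. No pair with Sox9 passed by both measures. Its r was highest with Gfap (0.38), Aqp4 (0.36) and Slc1a2 (0.36) and lowest with Gjb6 (-0.34, permutation test, adjusted p = 0.087).

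**Figure D4:**
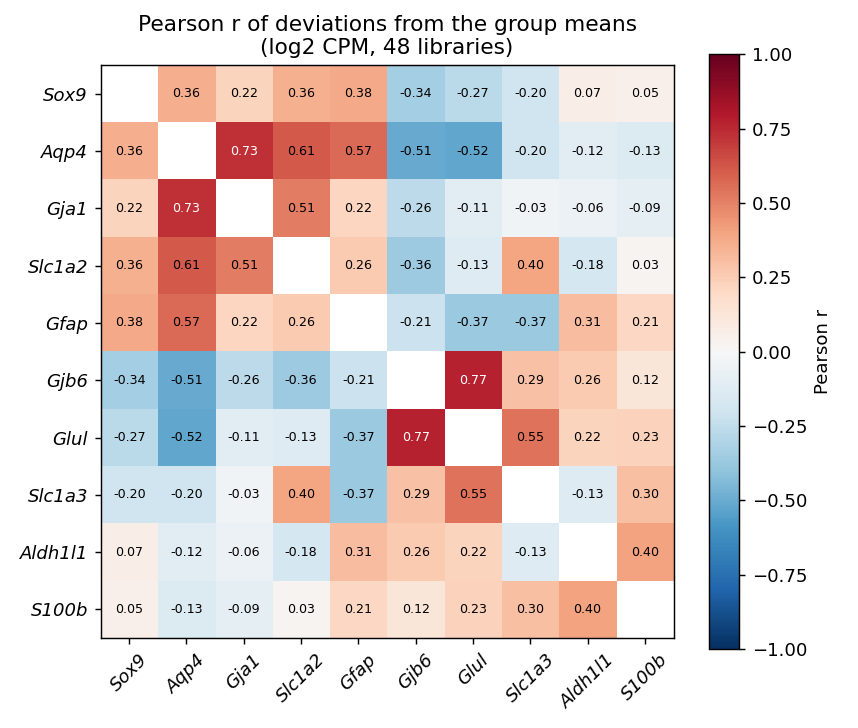
Pearson r for all 45 pairs of the 10 astrocyte genes, from deviations of log2 CPM from the 8 group means over 48 libraries (colour scale from -1 in blue to 1 in red). Aqp4, Gja1 and Slc1a2 form one red block (0.51 to 0.73), Gjb6 and Glul another (0.77), and Aqp4 is blue against both Gjb6 (-0.51) and Glul (-0.52).

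The other 68 astrocyte genes were placed by the same measure, as a description over the same libraries. Of these, 23 had r above 0 with Gjb6 and below 0 with Aqp4, 35 had the reverse, 7 were above 0 with both and 3 below 0 with both. Over 15560 other genes the shares were 34.4%, 36.8%, 12.2% and 16.6%, so opposite signs were the rule in the whole transcriptome and not particular to astrocyte genes. Large values of r were nonetheless common in the list. The r was above 0.5 with Aqp4 for 17 of 68 genes, beside 2.74% of all genes, and above 0.5 with Gjb6 for 8 of 68, beside 1.46%. On the side of Gjb6 stood Sdc4 (r = 0.83, rho = 0.81), a syndecan, and Etnppl (r = 0.77 with Gjb6 and r = -0.78 with Aqp4), which breaks down phosphoethanolamine. On the side of Aqp4 stood Ncan, the matrix protein neurocan (r = 0.79 with Aqp4 and r = -0.60 with Gjb6), and Acsl6, which activates fatty acids (r = 0.77 with Aqp4).

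**Figure D5:**
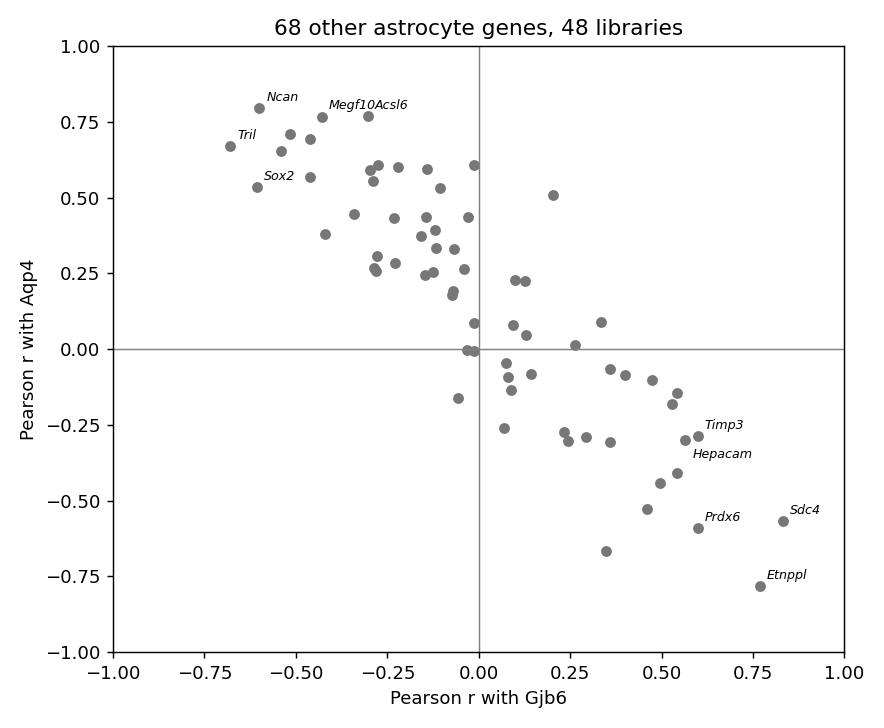
Pearson r of 68 other astrocyte genes with Gjb6 (x axis) and with Aqp4 (y axis), from deviations from the group means over 48 libraries, 1 point per gene, with the most extreme genes named. The points run from the upper left (Ncan, r = 0.79 with Aqp4) to the lower right (Etnppl, r = 0.77 with Gjb6), and 58 of 68 lie in those 2 quadrants.

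Over all genes passing the filter, those most like each gene were named by the largest r over the 48 libraries, which is a measure of likeness chosen by its size. For Sox9 they were Sox2 (r = 0.60, rho = 0.61), 2810459M11Rik (0.57), Slc16a1, the monocarboxylate transporter MCT1 (0.56), 2810429I04Rik (0.55) and Fam118a (0.55). Sox9 thus had fewer close neighbours than the rest, with 0.0642% of genes above r = 0.5, where Aqp4 had 2.77%. The nearest to Gjb6 was Fam107a (0.85), to Aqp4 Gpam (0.83), to Gja1 S1pr1 (0.80), to Glul Rin2 (0.78), to Slc1a3 Tspan7 (0.69), to Slc1a2 Tdrd7 (0.69), to S100b Mtfr1l (0.66) and to Aldh1l1 Rbck1 (0.62). For Gfap it was Prss23 (r = 0.70), where rho was 0.23.

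Among the neighbours of Gjb6 were genes that glucocorticoids induce, and 2 lists were therefore drawn up after these values were seen. All 12 glucocorticoid-induced genes had r above 0 with Gjb6 (median 0.68, among them Sult1a1 at 0.83 and Tsc22d3 at 0.80). Sult1a1 and Plin4 had been seen among the 5 genes most like Gjb6, so these values were partly fixed by the choice of list. Of 15560 other genes, 34.4% had r above 0 with Gjb6 and below 0 with Aqp4, and 12.2% above 0 with both. All 12 genes of the list had r below 0 with Sox9 (median -0.32), with Gja1 (median -0.41) and with Slc1a2 (median -0.44). Gjb6 itself had r = -0.34 with Sox9, -0.26 with Gja1 and -0.36 with Slc1a2. These signs were thus also partly fixed by the choice of list, and the share of all genes below 0 was not counted for these genes. Of 15 clock genes, 11 had r below 0 with Aqp4 (median -0.61, among them Cry2 at -0.75), while Arntl, which encodes the clock activator BMAL1, had 0.74. Of the 12 glucocorticoid-induced genes, 11 were also below 0 with Aqp4 (median -0.48), and Per1 is in both lists. Over the 15560 other genes, 34.4% were below 0 with Aqp4 and above 0 with Gjb6, and 16.6% were below 0 with both. After the open field, 5 of the 12 glucocorticoid-induced genes rose in the Glu-CB1 line (1.32% of all genes were called higher) and 3 rose in the GABA-CB1 line (0.762%) in edgeR's test, among them Sgk1 in both (0.49, SE 0.120, adjusted p = 0.0321, and 0.53, SE 0.098, adjusted p = 0.0078). The hour at which each mouse was killed is not given in the labels, and the part of stress hormones or time of day in these relations was not tested.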

How the data were processed

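Total RNA of CA tissue was amplified and sequenced as single reads by the authors, who trimmed the reads with bbduk, aligned them to mm10 with STAR 2.6.0a and counted them by strand on exons with featureCounts 1.6.2. The authors deposited raw counts as whole numbers, without normalization, for 24421 genes in 48 libraries. Groups were taken from the labels, and each library is 1 mouse. Amplification without molecular identifiers means that the spread between mice, not the count, sets the error. No pair of libraries within a group was alike enough to be a duplicate (lowest chi-square per degree of freedom 2.88 over 123 pairs).

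Counts were tested with edgeR 4.0.16 (R 4.3.3) by the quasi-likelihood test with TMM normalization, filterByExpr and Benjamini-Hochberg adjustment over all genes tested. KO was compared with WT in the 12 libraries of each line and state. The open field response and the interaction were fitted on the 24 libraries of a line, and comparisons between lines on all 48. CPM were normalized by TMM over 48 libraries, RPKM used the exonic length given in the count table, and correlations used log2 CPM with a prior count of 2. Correlations were tested in Python 3.11.15 with numpy 2.4.6. The fits of KO minus WT in basal Glu-CB1 mice and of the open field response in the GABA-CB1 line were also run on simulated counts. The share of changes recovered is not given here, so the power of the tests is not stated. Promoter sequences were taken from RefSeq (GRCm38.p6).

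The 10 genes and the gene lists were chosen with earlier results of these data known, and 2 further lists after the correlations were seen. Named are the 10 genes, listed genes called in a comparison, the 5 genes most like Sox9, the 1 gene most like each other gene and the 3 tested genes nearest to Sox9 on either side. Genes named beside these for their r were chosen after their values were seen. The alternatives were DESeq2 1.42.0, normalization by RLE, a filter of 1 count summed over libraries or of 10 in each, a single fit of all libraries, a replicate block and each library left out. Added after the data were seen were the first principal component as a covariate and the removal of 4 libraries rich in choroid plexus markers or of 1 library with high Gfap, and levels scaled to all reads.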

Additional observations from a re-analysis of the deposited data

Results flagged for a closer look

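In 5 of the 80 sets formed by a gene and a group, 1 library lay far from the others by Dixon's criterion at the 95% level. Chance alone gives such a library in about 5% of sets, which is close to the number found. Gfap was at 639 CPM in GABA-CB1-KO open field replicate 1, where the other 4 libraries of the group lay between 222 and 269 CPM. Sox9 was at 19.7 CPM in Glu-CB1-WT open field replicate 2, below the 21.3 to 21.9 CPM of its group. Slc1a2 was at 3850 CPM in GABA-CB1-KO basal replicate 3, above the 3277 to 3481 CPM of its group. Scaled to all reads in place of TMM, this library was at 3577 CPM and no longer stood apart. Slc1a3 was at 784 CPM in Glu-CB1-KO open field replicate 5, above the 694 to 728 CPM of its group. Aldh1l1 was at 53.9 CPM in Glu-CB1-WT open field replicate 5, above the 45.6 to 46.8 CPM of its group. With that scaling, a check chosen after the data were seen, 4 sets had such a library and 3 of them were among these 5 (Slc1a3, Gfap and Aldh1l1), while the fourth was Gja1 in GABA-CB1-WT open field replicate 5, at 290 CPM.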

How the results depend on the processing

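Of the 10 genes, the number called after the open field was 1 in the Glu-CB1 line under every alternative. In the GABA-CB1 line it was 0, and it was 1 (Sox9) with all 48 libraries in one fit, with DESeq2, and without either GABA-CB1-KO basal replicate 4 or GABA-CB1-KO open field replicate 1, so that it ranged from 0 to 1 when single libraries were left out. Each of these calls was Sox9, which was chosen for this difference. The counts thus describe the values that chose the gene and are no further test. The Sox9 difference itself ran from -0.24 to -0.17 over both lines and all alternatives, and the Gjb6 difference from 0.13 to 0.28. In the other 9 comparisons 0 of the 10 genes were called under any alternative. Without GABA-CB1-KO open field replicate 1, Gfap changed sign in 5 comparisons. It went to -0.22 in KO minus WT of the open field GABA-CB1 line, -0.090 in its open field response, -0.12 in its interaction, 0.20 in the difference between lines of KO minus WT and 0.12 in that of the open field response. At the other end, without GABA-CB1-KO open field replicate 2, the last 3 were 0.38, -0.055 and -0.13.

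The number of all genes called moved more. With DESeq2 it was 494 in place of 277 for the open field response of the Glu-CB1 line, 272 in place of 147 for that of the GABA-CB1 line, 14 in place of 3, 131 in place of 41, 110 in place of 37 and 158 in place of 3 for the KO comparisons in the order given in the report, 178 in place of 114 for their difference between lines and 62 in place of 0 for the GABA-CB1 interaction. Without the 4 libraries rich in choroid plexus markers, 115 and 32 genes were called for the open field responses, and fewer samples entered these fits. Leaving out single libraries gave 149 (without Glu-CB1-KO basal replicate 7) to 436 (without Glu-CB1-KO basal replicate 3) in the Glu-CB1 line, and 64 (without GABA-CB1-KO basal replicate 2) to 268 (without GABA-CB1-KO basal replicate 5) in the GABA-CB1 line. The cause was not tested. All 54 alternative values of the 9 correlated pairs kept their sign, and 19 moved by more than their jackknife error.

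The replicate numbers of the labels do not pair the mice. Libraries with the same number in different groups deviated from their group means with correlations from -0.33 to 0.32 over 21 pairs, above 0.1 in 4. With the replicate block, 3 and 8 genes were called in place of 41 and 37 for KO minus WT in the open field Glu-CB1 and the basal GABA-CB1 line, 1 in place of 3 in the open field GABA-CB1 line and 36 in place of 147 for the open field response of that line, and no call among the 10 genes changed.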
